A study of Equus caballus with 24 samples.

Results

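The HOX genes of the horse were followed through 24 RNA-seq libraries from the pituitary and the long bone. The members were all genes of the read table with a gene name of the form HOX, a cluster letter from A to D and a number. This gave 33 of the 24232 genes, with 9 in the HOXA, 8 in the HOXB, 8 in the HOXC and 8 in the HOXD cluster. No expression value entered this rule, but the HOX genes were chosen with earlier results of these data known. HOXA4, HOXA9, HOXB4, HOXB9, HOXC4 and HOXD4 had no row by name and were not analysed here as members. The libraries came from female Debao ponies (DPs), a small breed, and female Mongolian horses (MHs), a taller one, at a juvenile and an adult stage, in 8 groups of 3. For the pituitary the groups were DPPJ (juvenile DPs), DPPA (adult DPs), MHPJ (juvenile MHs) and MHPA (adult MHs), and for the long bone, in the same order, DPLBJ, DPLBA, MHLBJ and MHLBA. A library is named by its group and replicate number, so that DPLBJ1 is replicate 1 of DPLBJ. No treatment or genotype separated the groups. The long bone pieces are labelled epiphysis and were the ends of long bones of animals killed at a slaughterhouse. Neither the bone nor the limb it came from is given, and the stages carry no age in the labels.

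HOX genes encode homeodomain transcription factors that give cells along the body axis their positional identity. They lie in clusters, and a gene is numbered by its place in its cluster, so that genes of the same number in different clusters are paralogs. Low numbers are used from the hindbrain backwards and high numbers towards the tail, and the same order is used again along the limb, where HOXA and HOXD genes of high number pattern the upper arm, the forearm and the hand in turn. HOXC genes of high number are known for the hindlimb, where PITX1 and TBX4 act, while TBX5 acts in the forelimb. Cells of adult connective tissue and bone keep much of this code. The forebrain and the pituitary, which forms from the oral ectoderm and the floor of the forebrain, develop in front of the HOX-expressing territory.

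A pituitary library had 11433209 to 23573036 reads on genes, and a long bone library 11616518 to 27007342. The labels were checked against marker genes, whose levels are given here as summed CPM, the reads of a list scaled to a common library size. Of 9 anterior pituitary markers listed, 6 were in the table, and they reached 11946 to 36286 in 7 of the pituitary libraries but 14.2 in DPPA1, 1.00 in MHPA1 and 0.129 to 7.70 in MHPJ1, MHPJ2 and MHPJ3. In these 5 libraries the hormone genes that define the gland were at 0 to 6.47 RPKM for GH, 0 to 12.98 for POMC and 0 to 1.16 for PRL, against at least 6597, 3284 and 1603 in the other 7, and 4 oligodendrocyte markers summed to 2923 to 14573. MHPJ2 also carried skeletal muscle markers at 1044 and erythroid markers at 274. All long bone libraries had 6 osteoblast markers at 3412 or more, and the lowest sums of adipocyte markers (583) and endothelial markers (410) were those of MHLBA1. MHLBJ1 and MHLBA3 also carried skeletal muscle markers at 494 and 327, against at most 23.4 in the other long bone libraries. The tests between tissues and between breeds in the adult pituitary and over both stages of the pituitary are also given without these pituitary libraries, and tests in the long bone were also made without MHLBA1. All MHPJ libraries are among the 5, so the juvenile breed test, the MH stage test and the interaction in the pituitary rest on them, and levels and shares are given over all libraries.

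**Figure D1:**
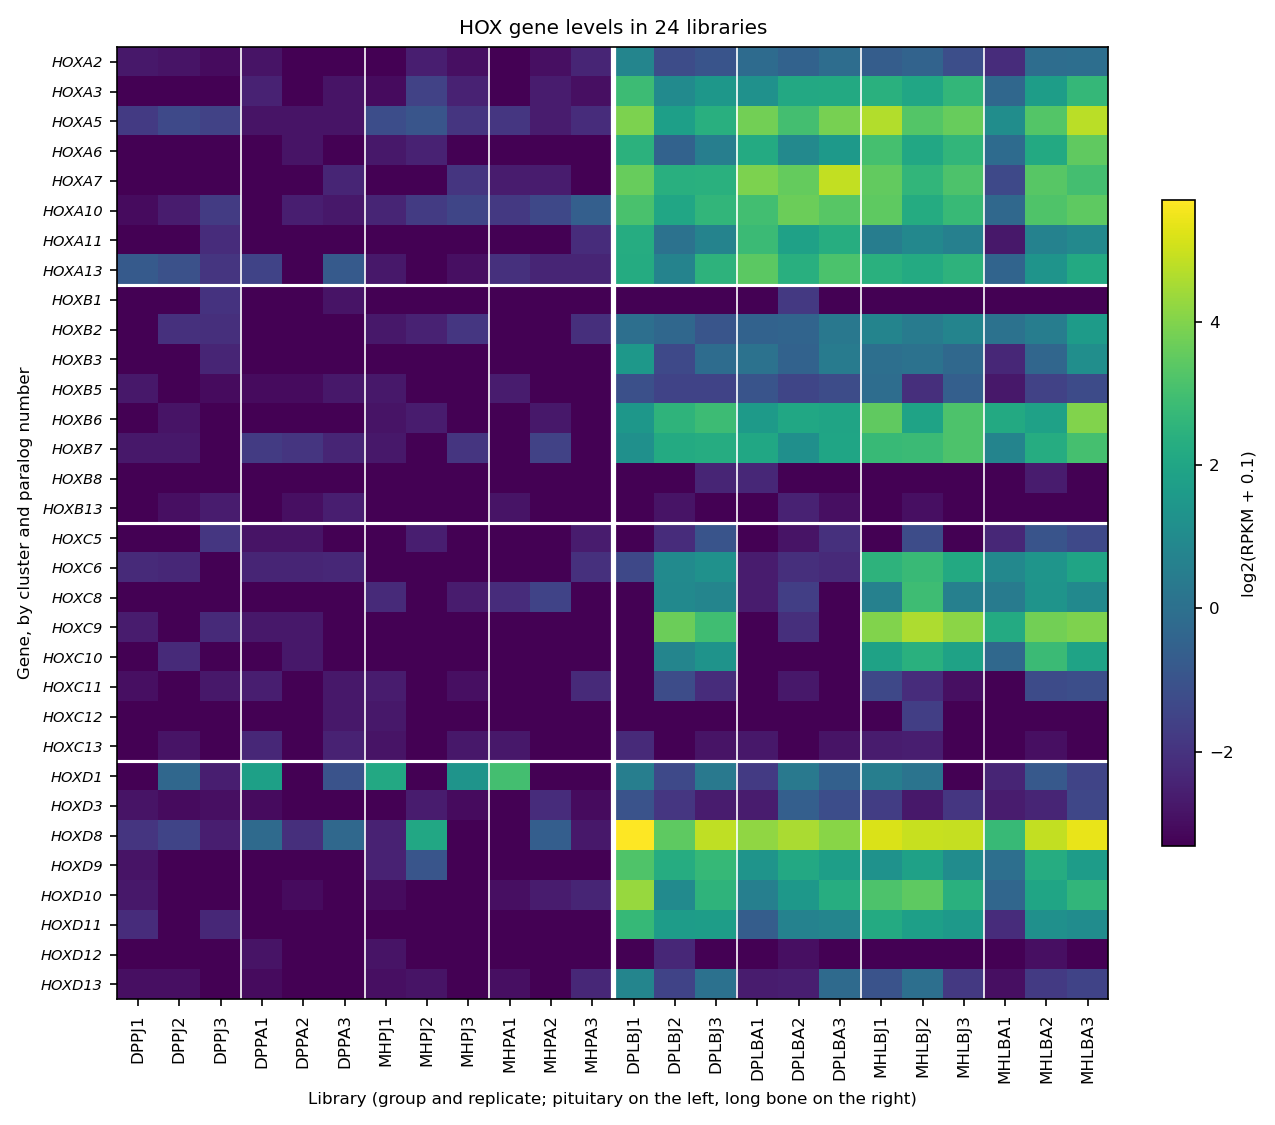
Level of the HOX genes shown (rows, ordered by cluster and paralog number) in each of the 24 libraries (columns), as log2(RPKM + 0.1) in colour. The right-hand block of 12 long bone libraries holds nearly all of the signal, the HOXC rows go dark in DPLBJ1 and in DPLBA1 to DPLBA3, and the bright pituitary squares are HOXD1 in DPPA1, MHPJ1, MHPJ3 and MHPA1 and HOXD8 in MHPJ2.

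HOX genes marked the long bone and were nearly silent in the pituitary. The 33 genes together took 696 to 4467 reads in a long bone library, with a median of 3253, and 23 to 119 in a pituitary library, with a median of 61. In CPM this was 35.8 to 268 against 0.976 to 9.27, so the tissues did not overlap. At most 3 reads in a library cannot be told apart from 0 by counting error, and such a gene was counted as not detected. On this basis 29 genes were detected in at least 1 long bone library and 13 in all 12, whereas 13 were detected in at least 1 pituitary library and 0 in all 12. Levels of different genes are compared as RPKM, the reads divided by gene length and by library size. The median over the 12 libraries was at least 1 RPKM for 18 HOX genes in the long bone and for 0 in the pituitary. In tissue pieces of this kind, fewer cells of a type and less RNA per cell cannot be told apart.

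Differences were tested on the reads with edgeR's quasi-likelihood test, and differentially expressed genes (DEGs) had a fold change over 2 with P under 0.05 before adjustment. Between the tissues, 26 HOX genes passed the filter on low counts and 23 were DEGs, all higher in the long bone and all with a Benjamini-Hochberg adjusted p under 0.05. Over all 16131 genes tested, 17.4% were DEGs higher in the long bone, and 17.1% with the adjusted p. Most HOX genes could pass the filter only through the long bone, so the count is a description. HOXA10 had 43 to 939 reads in the long bone, with a median of 426.5, and 0 to 27 in the pituitary, with a median of 6.5. Its log2 fold change, long bone minus pituitary, was 6.02 ± 0.46 (SE, adjusted p = 5.12e-09, 12 libraries each, edgeR), and no pituitary library reached the lowest long bone library. HOXB6 had the largest difference, with 1692 reads in all long bone libraries and 4 in all pituitary libraries (8.61 ± 0.51, adjusted p = 1.25e-09). HOXD8, the most abundant of the genes in the bone, differed by 6.17 ± 0.67 (adjusted p = 3.47e-07), and by 7.39 without MHPJ2 and 6.83 without MHPA2.

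Further DEGs of the HOXA cluster had log2 fold changes of 4.54 (HOXA2), 7.34 (HOXA3), 6.43 (HOXA5), 8.11 (HOXA6), 8.41 (HOXA7), 7.06 (HOXA11) and 5.22 (HOXA13). In the HOXB cluster they had 4.81 (HOXB2), 6.68 (HOXB3), 3.63 (HOXB5) and 5.96 (HOXB7), and in the HOXC cluster 5.08 (HOXC6), 5.12 (HOXC8) and 7.19 (HOXC9). In the HOXD cluster they had 3.20 (HOXD3), 7.85 (HOXD9), 8.27 (HOXD10), 6.66 (HOXD11) and 4.16 (HOXD13). The pituitary reads behind these values were few, from 2 for HOXB3 and HOXD11 to 95 for HOXA13 over 12 libraries, and single pituitary libraries moved several values by over 1.5-fold with the call kept. HOXA2 was at 5.18 without DPPA1, HOXA7 at 9.25 without MHPJ3 and 9.01 without DPPA3, and HOXA11 at 7.77 without DPPJ3 and 7.76 without MHPA3. HOXB2 was at 5.51 and HOXC6 at 5.77 without MHPA3, HOXB5 at 4.34 without MHPA1 and 4.33 without MHPJ1, HOXB7 at 6.87 without MHPA2, and HOXD10 at 8.88 without DPPJ1.

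The lowest of these differences was that of HOXD3, 3.20 ± 0.60. The genes tested and not called were HOXD1, HOXC10 and HOXC11. HOXD1 had 89 reads in the long bone and 214 in the pituitary, and its log2 fold change was -0.90 ± 0.93 (adjusted p = 0.415). HOXC10 had 490 reads in the long bone against 3 in the pituitary, a 181-fold ratio per read counted with a 95% counting interval from 61.4 to 878. The test did not call it, and why was not tested. Its 3 DPLBA libraries were all at 0, as were its MHPJ and MHPA libraries. HOXC11 had 53 against 14 reads (1.56 ± 0.81, adjusted p = 0.104). The 7 genes that did not pass the filter had few reads in both tissues, between 3 and 40 in all long bone libraries together and between 0 and 9 in all pituitary libraries together. They were HOXB1, HOXB8, HOXB13, HOXC5, HOXC12, HOXC13 and HOXD12. Without the 5 pituitary libraries poor in hormone transcripts and MHLBA1, a choice made after their values were seen, 24 HOX genes were called. The values that moved by over 1.5-fold included those of HOXA2 (5.41), HOXA3 (8.36), HOXA5 (7.14), HOXA6 (8.73), HOXB5 (4.61), HOXD8 (6.90), HOXD9 (9.12) and HOXD13 (4.92), which went up, and of HOXC6 (4.17), which went down. HOXC9 lost its call without DPLBA2 (6.57, adjusted p = 1), when the 2 libraries left in its group were at 0.

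**Figure D2:**
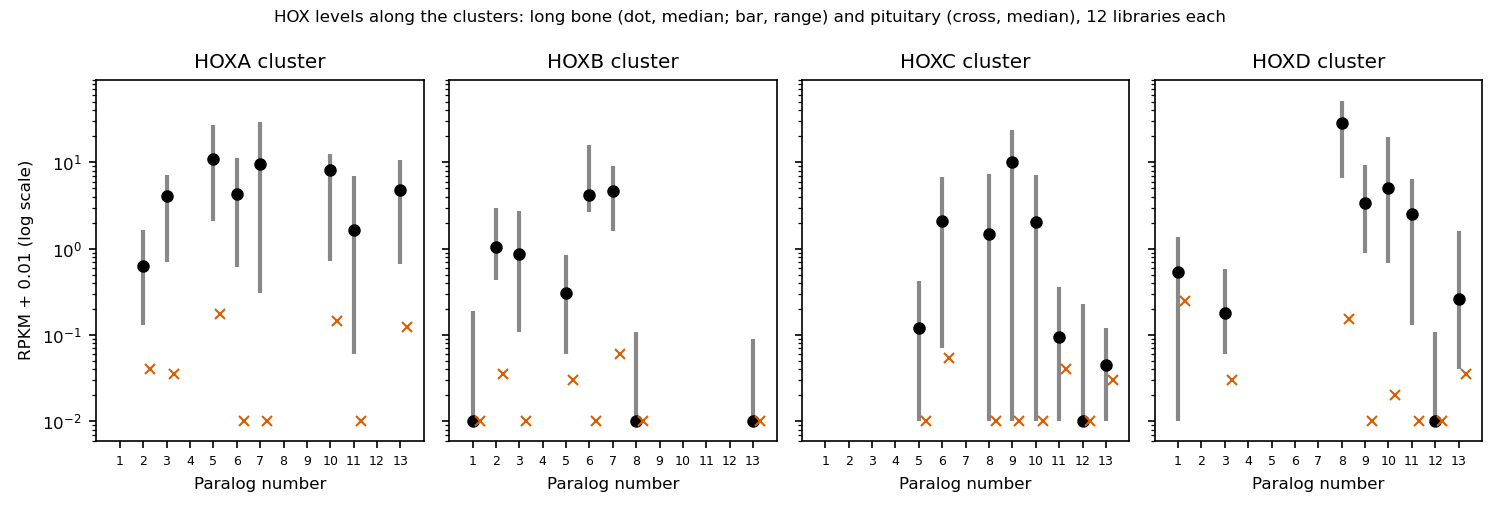
Level of the HOX genes shown along each cluster, with paralog number on the horizontal axis and RPKM + 0.01 on a log scale on the vertical axis. Dots are medians and bars the full range over 12 long bone libraries, and crosses are medians over 12 pituitary libraries. In the long bone HOXA5, HOXB7, HOXC9 and HOXD8 had the highest medians of their clusters, and no pituitary median reached 1 RPKM. In the HOXB cluster HOXB8 and HOXB13 were low, and HOXB9 had no row by name.

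By paralog number, the long bone used mainly the middle and the posterior part of the clusters. Paralogs 4 to 8 made up 49.6% to 65.9% of the summed HOX RPKM of a long bone library, paralogs 9 to 13 26.5% to 45.0% and paralogs 1 to 3 5.49% to 9.07%. The highest summed level was that of paralog group 8, with a median of 30.9 RPKM, followed by group 9 with 15.8, group 10 with 15.3 and group 7 with 14.6. Group 12 had a median of 0 RPKM, and HOXC12 and HOXD12 stayed at or under 0.22 in every long bone library. Group 13, the most posterior, had a median of 5.57 RPKM and a range from 0.69 to 10.8. The shares and this order rest on the genes with a row by name, which leave out several of paralog groups 4 and 9. An unnamed row described in the table as hox-a9 had a long bone median of 29.5 RPKM, above every named HOXA gene. With it, a choice made after its values were seen, group 9 had a median of 44.5 RPKM and stood above group 8, paralogs 9 to 13 made up 35.1% to 55.1% and paralogs 4 to 8 39.8% to 58.4%, and the posterior share was the larger in 8 of the 12 libraries.

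HOXA genes were read from HOXA2 to HOXA13 in the long bone. HOXA5 had a median of 10.9 RPKM (range 2.06 to 27.4), HOXA7 9.61 (0.30 to 29.6), HOXA10 8.18 (0.72 to 12.6) and HOXA13 4.82 (0.66 to 10.7). HOXA10 is known for the upper part of the limb, HOXA11 for the middle and HOXA13 for the digits. All of them were read in the same pieces, with HOXA11 at a median of 1.65 RPKM and a range from 0.05 to 6.96. HOXA2, an anterior gene, was lower, with a median of 0.62 RPKM, while HOXA3 reached 4.10 and HOXA6 4.26. The lowest value of each of HOXA2, HOXA3, HOXA5, HOXA7, HOXA10, HOXA11 and HOXA13 was that of MHLBA1.

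In the HOXB cluster the signal sat on HOXB6 and HOXB7, which are used in the trunk and the early limb. HOXB6 had a median of 4.19 RPKM and a range from 2.66 to 15.9, and HOXB7 a median of 4.60 and a range from 1.59 to 9.09. HOXB2 was at 1.05 RPKM, HOXB3 at 0.85 and HOXB5 at 0.30 in the median. HOXB8 had 3 reads in all long bone libraries together and HOXB13 had 6. Both genes were thus at or under 3 reads in each of the 24 libraries. HOXB9, which lies between them, had no row by name, and the gene model of HOXB8 is short, at 483 bases.

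HOXD8 was the leading gene of the HOXD cluster and had the highest RPKM of the 33 genes in 10 of the 12 long bone libraries. Its median was 28.9 RPKM, with 52.1 in DPLBJ1 and 6.67 in MHLBA1 at the ends of the range. The exceptions were DPLBJ2, led by HOXC9 at 12.7 RPKM, and DPLBA3, led by HOXA7 at 29.6. Along the rest of the cluster the medians were 3.34 RPKM for HOXD9, 5.02 for HOXD10, 2.52 for HOXD11, 0 for HOXD12 and 0.25 for HOXD13. HOXD10 varied within a single group, with 19.9 RPKM in DPLBJ1, 1.89 in DPLBJ2 and 5.71 in DPLBJ3. HOXD1 and HOXD3, at the anterior end, had medians of 0.53 and 0.17.

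The HOXC cluster was well read in 8 of the 12 long bone libraries and was close to 0 in the other 4. HOXC genes took 3, 10 and 6 reads in DPLBA1, DPLBA2 and DPLBA3 and 6 reads in DPLBJ1. They took 268 and 236 reads in DPLBJ2 and DPLBJ3, 317, 886 and 476 in MHLBJ1 to MHLBJ3, and 140, 649 and 282 in MHLBA1 to MHLBA3. As a share of the summed HOX RPKM this was 0.179% to 0.636% in the first 4 libraries and 14% to 30.8% in the others, with no value in between. HOXC9 was the leading gene of the cluster. It had 0, 2, 0 and 0 reads in DPLBA1 to DPLBA3 and DPLBJ1, and 172, 115, 175, 447, 296, 70, 315 and 160 reads in DPLBJ2, DPLBJ3, the MHLBJ and the MHLBA libraries. HOXC10 had 0 reads in each of the same 4 libraries and 12 to 170 in the other 8. HOXC8 had 1, 2, 0 and 0 against 20 to 168 reads, and HOXC6 had 1, 3, 2 and 4 against 30 to 148.

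The 4 libraries with few HOXC reads were not poor in the other clusters. Their HOXA genes took 1717, 2103, 2333 and 1382 reads in DPLBA1 to DPLBA3 and DPLBJ1, and their HOXD genes 528, 1062, 801 and 1877. HOXA made up 66.0%, 53.1% and 66.0% of the summed HOX RPKM in DPLBA1 to DPLBA3, the highest shares of the 12 libraries, and 37.3% in DPLBJ1. At their depth the 0 reads of HOXC10 in DPLBA1 to DPLBA3 allow up to 3 reads in each library.

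The limb identity genes PITX1 and TBX5 divided the same libraries. TBX5, the forelimb T-box factor, was at 4.39, 4.31 and 9.05 RPKM in DPLBA1 to DPLBA3 and at 6.09 in DPLBJ1. In the other 8 long bone libraries it was at 0.53 and 0.12 in DPLBJ2 and DPLBJ3, 0.08, 0.05 and 0.28 in MHLBJ and 0.04, 0.60 and 0.77 in MHLBA. PITX1, the hindlimb homeodomain factor, went the other way, with 0.10, 0.36, 0.73 and 0.12 RPKM in DPLBA1 to DPLBA3 and DPLBJ1. It was at 4.80 and 5.00 in DPLBJ2 and DPLBJ3, 11.0, 11.9 and 9.13 in MHLBJ and 2.46, 11.1 and 6.70 in MHLBA. For both genes the 4 libraries lay apart from the other 8. TBX4, also known for the hindlimb, did not separate them, with 0.88 to 1.71 RPKM in the 4 libraries and 0.48 to 2.73 in the others. These libraries are set apart here by their own HOXC reads, so no test was made between them, and whether the pieces came from forelimb and hindlimb was not tested, since the labels give no limb.

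**Figure D3:**
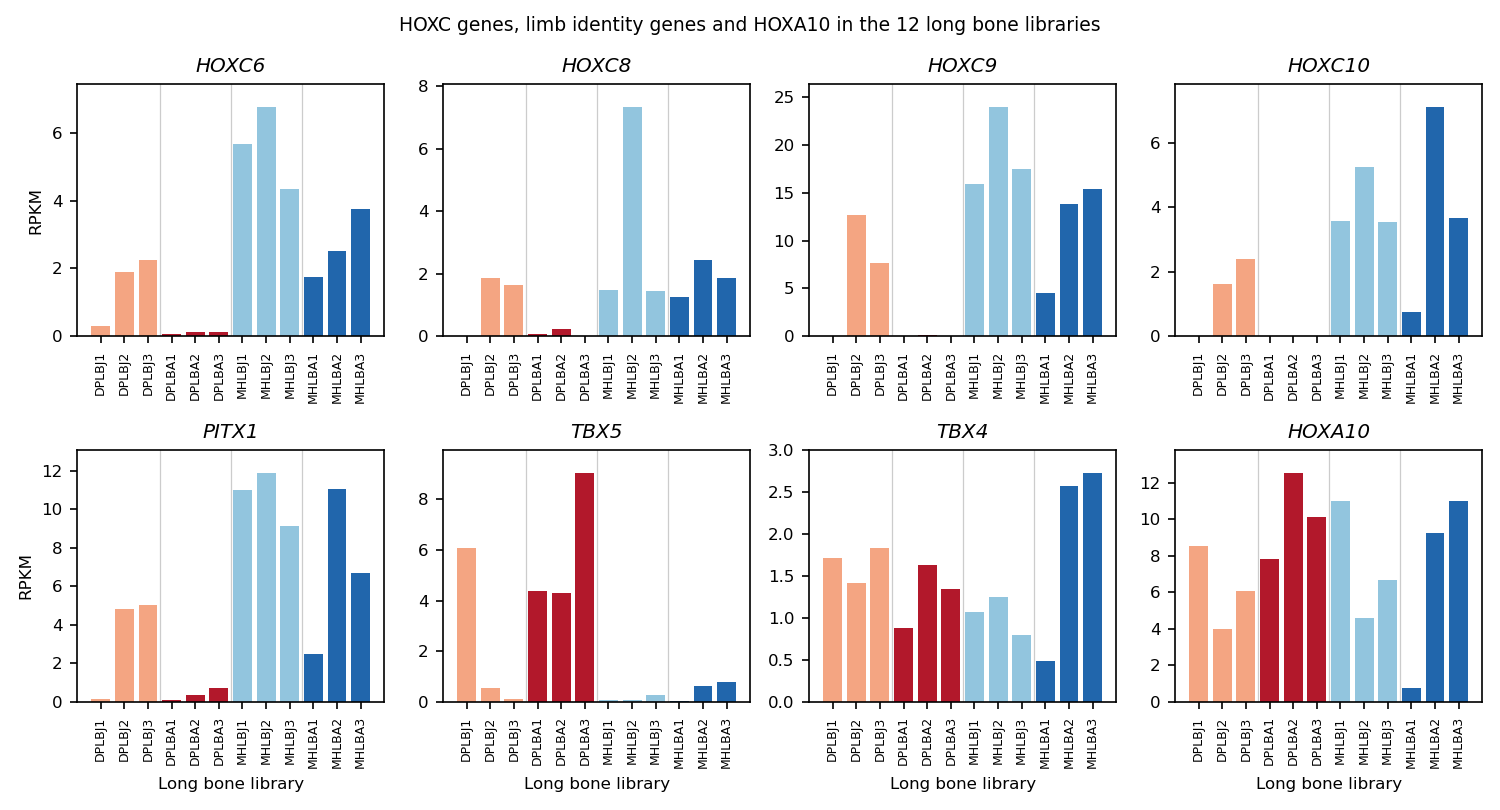
RPKM of HOXC6, HOXC8, HOXC9, HOXC10, PITX1, TBX5, TBX4 and HOXA10 in each long bone library (1 bar a library; light red DPLBJ, dark red DPLBA, light blue MHLBJ, dark blue MHLBA; axes start at 0). DPLBJ1 and the 3 DPLBA libraries have the lowest HOXC and PITX1 bars and the highest TBX5 bars, while TBX4 and HOXA10 do not follow this split.

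In the adult long bone, the HOXC genes tested were far lower in DPs than in MHs. HOXA11 and HOXA13 were called higher, at a rate near that of all genes and with no adjusted p under 0.05. Of 23 HOX genes tested between DPLBA and MHLBA, 6 were DEGs, 4 lower and 2 higher in DPs, against 18.3% of all 14073 genes tested, 8.03% lower and 10.3% higher. For 8 of the 23, every library of a breed lay on the same side of all libraries of the other in CPM with the TMM factors of the test, against 29.9% of all genes. Such counts are given on this scale throughout, and in RPKM this one was 7. HOXC9 had 0, 2 and 0 reads in DPLBA and 70, 315 and 160 in MHLBA, 290-fold more per read counted in MHs with a counting interval from 79.9 to 2402 (adjusted p = 0.0215, edgeR). HOXC8 had 1, 2 and 0 against 24, 68 and 24 reads (41.2-fold, 13.7 to 203, adjusted p = 0.0333). HOXC6 had 1, 3 and 2 against 32, 67 and 46 reads (25.7-fold, 11.5 to 71.3, adjusted p = 0.0223). HOXC10 had 0, 0 and 0 against 12, 170 and 40 reads, at least 20.8-fold higher in MHs when 3 reads are allowed in each DPLBA library (adjusted p = 0.0418). All 4 HOXC genes tested were called, and they are the only HOX genes of this comparison with an adjusted p under 0.05, against 2.24% of all genes in either direction and 0.497% lower. With at most 3 reads in each DPLBA library, these genes could pass the filter on low counts only through MHLBA. Their count is therefore a description. The fitted log2 fold changes were -7.87 ± 0.91 for HOXC9, -5.15 ± 0.83 for HOXC8, -4.69 ± 0.62 for HOXC6 and -8.95 ± 1.35 for HOXC10, and the values near 0 make them depend on the model's prior count. Without DPLBA2 those of HOXC9 and HOXC8 were -10.43 and -5.89, and without MHLBA2 that of HOXC10 was -8.02, and each was still called.

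HOXA13, which patterns the digits, had 10.7, 5.03 and 8.67 RPKM in DPLBA and 0.66, 2.45 and 4.40 in MHLBA. The groups did not overlap, and the log2 fold change was 1.75 ± 0.51 (adjusted p = 0.1001, edgeR). HOXA11 had 6.96, 3.49 and 4.84 RPKM against 0.05, 1.49 and 1.81 (2.29 ± 0.82, adjusted p = 0.147). Its call was lost without DPLBA1 (2.06) and without DPLBA3 (2.34). The lowest value of both HOXA11 and HOXA13 was that of MHLBA1. HOXA7 and HOXB2 also did not overlap between the breeds in CPM, HOXB2 with overlap in RPKM, but were not called, with log2 fold changes of 1.73 ± 0.85 and -1.15 ± 0.56. The other HOXA, HOXB and HOXD genes tested had log2 fold changes between -1.14 and 1.29. Of the 5 HOXD genes tested 0 were called, with -0.33 ± 0.44 for HOXD8, -0.15 ± 0.66 for HOXD10, -0.16 ± 0.84 for HOXD11, 0.23 ± 0.53 for HOXD9 and 1.29 ± 0.90 for HOXD3, and none had an unadjusted P under 0.05.

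PITX1 and TBX5 were DEGs in the same comparison. PITX1 was lower in DPs (-4.04 ± 0.76, adjusted p = 0.0422) and TBX5 higher (3.75 ± 0.75, adjusted p = 0.0498, edgeR), and PITX1 was at -4.74 without DPLBA3. In adults the HOXC and PITX1 levels therefore ran with the breed in all 6 libraries, and breed and a difference in the sampled bone cannot be told apart. Cartilage markers, 6 of 7 listed, also differed in level between these groups, at 9537, 1151 and 21760 summed CPM in DPLBA and 1119, 95.6 and 51.8 in MHLBA. Among the juvenile DP libraries DPLBJ1 had a cartilage sum of 182 and 6 HOXC reads, while DPLBJ2 and DPLBJ3 had 5190 and 19569 and were rich in HOXC reads. DPLBJ2 and DPLBJ3 also carried 4 erythroid markers at 6029 and 3026, against at most 149 in the other long bone libraries. Neutrophil markers, 2 of 5 listed, were at 672 to 1041 in DPLBA and 0.689 to 29.8 in MHLBA, and osteoblast markers at 18113 to 27632 and 3412 to 15446. In juveniles, 5 adipocyte markers were at 1463 to 3499 in DPLBJ and 6552 to 8765 in MHLBJ, and 4 endothelial markers at 592 to 1074 and 1779 to 2007, with no overlap in either. The part of these cell types in the HOX differences was not tested.

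**Figure D4:**
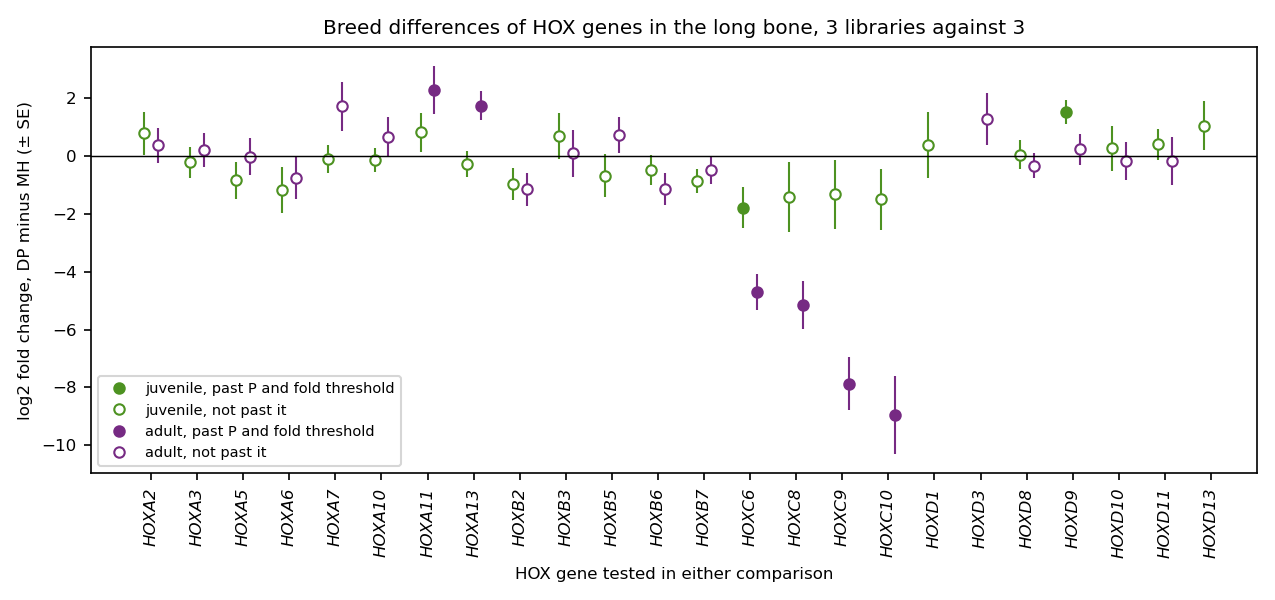
Log2 fold change, DP minus MH, with its SE for the HOX genes shown that were tested in the juvenile (green) or adult (purple) long bone, 3 libraries against 3, with filled points for genes past the P and fold threshold. The 4 adult HOXC points lie between -4.69 and -8.95, and the juvenile points of the same genes lie between -1.32 and -1.77 with wide errors.

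In the juvenile long bone the HOXC difference was smaller and uneven within DPs. Of 23 HOX genes tested, 2 were DEGs, against 13.8% of all 13755 genes. None had an adjusted p under 0.05, and neither did any other gene of that comparison in edgeR's test. HOXC6 had 0.29, 1.89 and 2.26 RPKM in DPLBJ and 5.68, 6.77 and 4.34 in MHLBJ, and was lower in DPs without overlap (-1.77 ± 0.70, adjusted p = 0.257). Its call was lost without DPLBJ3 (-2.08), MHLBJ1 (-1.77), MHLBJ2 (-1.62) or MHLBJ3 (-1.96). HOXC9 and HOXC10 did not overlap either, but DPLBJ1 at 0 and DPLBJ2 at 12.7 RPKM of HOXC9 gave an SE of 1.19 and a log2 fold change of -1.32. HOXD9 was higher in DPs, with 9.27, 4.72 and 6.45 RPKM against 2.30, 3.45 and 2.02 (1.53 ± 0.43, adjusted p = 0.165). In all, 6 HOX genes did not overlap, against 21.7% of genes. Without DPLBJ1 the count of DEGs rose to 5 (1 higher and 4 lower in DPs), and it was 1 without DPLBJ3 and without any single MHLBJ library. TBX5 was higher in DPs at 4.19 ± 1.48 (adjusted p = 0.222). Its call was lost without DPLBJ1 (1.44), MHLBJ1 (3.98) or MHLBJ2 (3.73), and it was at 5.20 without MHLBJ3. PITX1 was not called (-1.55 ± 0.95).

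The change of the breed difference between stages was tested as an interaction over the 12 long bone libraries. HOXC9, HOXC10, HOXC6 and HOXA13 passed the P and fold threshold, 4 of 26 HOX genes tested, against 4.17% of all 14735 genes. With adjustment over all genes none passed (adjusted p = 0.971, edgeR). The juvenile minus adult breed difference was 6.49 ± 1.87 for HOXC9, 7.36 ± 2.12 for HOXC10 and 2.87 ± 0.94 for HOXC6, and -2.06 ± 0.72 for HOXA13. The HOXC values again rest on groups at or near 0, and with limma on log2(RPKM + 0.1) they were 3.10, 2.36 and 1.55 for HOXC9, HOXC10 and HOXC6 and passed no threshold. HOXC9 was at 9.02 without DPLBA2 and 5.54 without DPLBJ2, and HOXC10 at 7.97 without DPLBJ1, 6.75 without DPLBJ3 and 6.53 without MHLBA2, all still past the threshold.

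Over both stages, with stage as a term, 6 of 26 HOX genes were DEGs between the breeds, against 18.6% of all 14735 genes. HOXC6 was lower in DPs at -3.02 ± 0.64 and had the only adjusted p under 0.05 (adjusted p = 0.0118, edgeR, against 12.2% of all genes). HOXC9 (-3.66), HOXC10 (-3.56), HOXC8 (-2.89) and HOXB2 (-1.08) were also lower and HOXA11 (1.54) was higher, with adjusted p-values between 0.0590 and 0.0968. HOXB2 was at 0.42 to 1.13 RPKM in the 6 DP libraries and 0.97 to 2.98 in the 6 MH libraries. It had a fold change under 2 without DPLBA1 (-0.99), DPLBJ3 (-0.95) or MHLBA3 (-0.90). HOXA11 lost its call without DPLBA1 (1.36) or DPLBJ1 (1.28), HOXC8 without MHLBJ2 (-2.76) and HOXC9 without DPLBA2 (-3.09). The fitted values of HOXC9 and HOXC10 ranged from -3.001 without DPLBA3 to -4.50 without MHLBJ1 or MHLBJ3, and from -3.04 without DPLBA2 to -4.27 without MHLBJ3. HOXC9 also lay at -3.02 without DPLBA1, -4.36 without DPLBJ2 and -4.41 without MHLBJ2, and HOXC10 at -4.18 without DPLBJ3 and -4.26 without MHLBJ1.

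Between the stages, 3 HOX genes were DEGs in the DP long bone and 0 in the MH long bone. No HOXC gene passed the filter in DPs, so none was tested there. HOXC9 had 0, 172 and 115 reads in DPLBJ and 0, 2 and 0 in DPLBA. In the DP long bone 3 of 20 HOX genes tested were DEGs, against 3.14% of all 13866 genes, and none had an adjusted p under 0.05 (adjusted p = 0.988, edgeR). HOXD11 was at 6.45, 3.07 and 3.13 RPKM in DPLBJ and 0.53, 1.52 and 1.63 in DPLBA (1.81 ± 0.68). HOXD9 was also higher in juveniles (1.06 ± 0.45), and HOXA7 was lower, with 11.99, 5.05 and 5.20 against 15.1, 11.8 and 29.6 RPKM (-1.29 ± 0.52). In CPM the groups did not overlap for these 3 genes and for HOXA13, 4 of 20 against 9.01% of all genes, while in RPKM HOXA7 and HOXA13 overlapped and 2 of 20 were left. Single libraries decided these calls. The count was 8 without DPLBJ1, 1 without DPLBJ3 and 6 without DPLBA2. HOXD11 was not called without DPLBJ1 (1.37), DPLBA1 (1.45), DPLBA2 (2.02) or DPLBA3 (2.05). HOXD9 was not called without DPLBJ1 (0.76), DPLBJ3 (1.15), DPLBA1 (0.85) or DPLBA3 (1.02). HOXA7 was not called without DPLBA3 (-0.83), DPLBJ2 (-1.08) or DPLBJ3 (-1.05).

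In the MH long bone 0 of 24 HOX genes tested were DEGs, against 2.91% of all 13899 genes, and 1 had an unadjusted P under 0.05. That was HOXC6, at a log2 fold change of 0.93 ± 0.37. DESeq2 called 2. HOXD11, HOXA13, HOXC9 and HOXC6 did not overlap between the stages, against 8.76% of all genes, and were higher in MHLBJ. The count was 4 without MHLBA3 and 2 without MHLBJ3, all higher in juveniles. HOXC6 was at 5.68, 6.77 and 4.34 RPKM in MHLBJ and 1.75, 2.51 and 3.77 in MHLBA.

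MHLBA1 had the lowest HOX level of the long bone libraries, 29.4 RPKM over the 33 genes against 69.4 to 181 in the other 11. The clusters differed. HOXA genes summed to 5.47 RPKM there against 17.8 to 76.0 in the others, and HOXD genes to 8.54 against 21.6 to 91.0. HOXB6, at 4.32 RPKM, was inside the range of the others. HOXC9 was at 4.49 RPKM, above the libraries with few HOXC reads and below the others with many. HOXC genes made up 28.3% of the summed HOX RPKM of MHLBA1, inside the range of the others with many HOXC reads. MEIS1, a homeodomain partner of HOX proteins, was at 60.7 RPKM in MHLBA1 and 0.18 to 3.92 in the other long bone libraries, and MEIS2 was at 23.9 against 0.09 to 7.51.

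**Figure D5:**
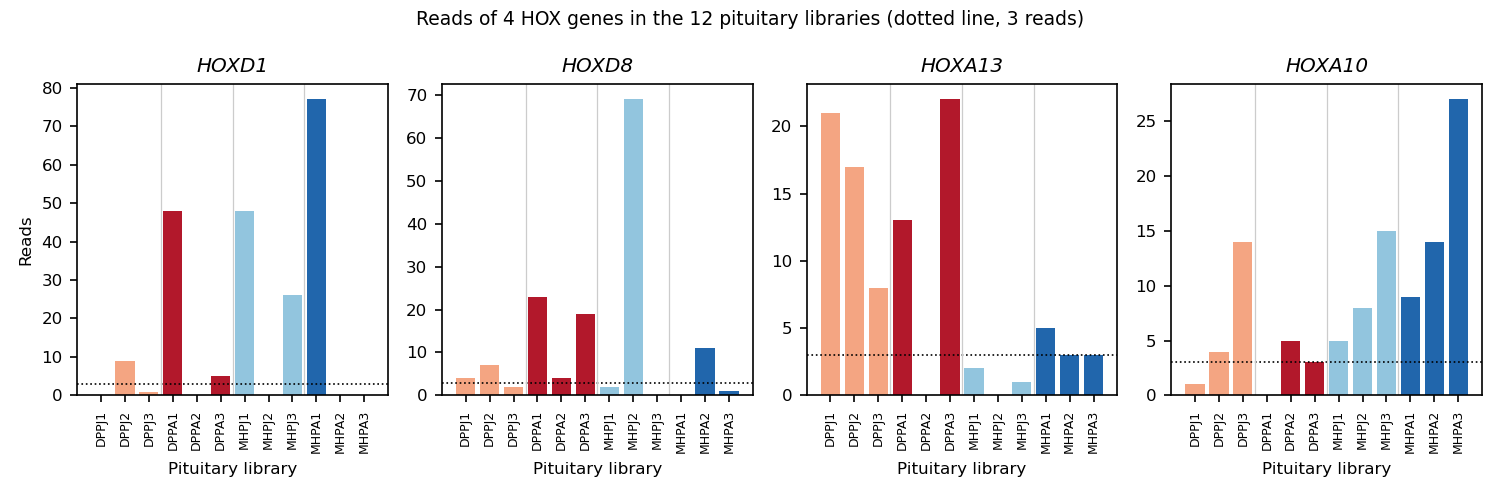
Reads of HOXD1, HOXD8, HOXA13 and HOXA10 in each pituitary library (1 bar a library; light red DPPJ, dark red DPPA, light blue MHPJ, dark blue MHPA; axes start at 0), with a dotted line at 3 reads. HOXD1 reached 26 to 77 reads in DPPA1, MHPJ1, MHPJ3 and MHPA1 and at most 9 elsewhere, and HOXD8 reached 69 in MHPJ2.

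The pituitary held short and local HOX signals. Of the 33 genes, 20 had at most 3 reads in every pituitary library, and only HOXD1, HOXD8, HOXA10 and HOXA13 reached 10 reads in any of them. HOXD1, the anterior end of its cluster, had 48 reads in DPPA1, 48 in MHPJ1, 26 in MHPJ3 and 77 in MHPA1. It had 0, 9 and 1 reads in DPPJ, 0 and 5 in DPPA2 and DPPA3 and 0 in MHPJ2, MHPA2 and MHPA3. The highest level of any HOX gene in a pituitary library was that of HOXD1 in MHPA1, at 7.92 RPKM, above all long bone libraries, where it went from 0 to 1.37. These 4 libraries are 4 of the 5 poor in hormone transcripts, and they carried astrocyte markers at 2947 to 8125 summed CPM. DPPJ2, with 9 reads, had 3114 and the other 7 pituitary libraries had 38.1 to 250. HOXB1, a paralog of HOXD1, had 4 reads in DPPJ3, 1 in DPPA3 and 0 in the rest.

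HOXD8 went with another piece. It had 69 reads in MHPJ2, 23 in DPPA1, 19 in DPPA3, 11 in MHPA2 and 0 to 7 in the others. MHPJ2 also had the highest pituitary reads of HOXD9 (7) and HOXA3 (7), and was the library with skeletal muscle, erythroid and hindbrain transcripts, among them EGR2 at 33.7 RPKM against 0.16 to 1.88 in the other pituitary libraries. Whether cells from outside the gland carried the HOX reads of these libraries was not tested.

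Between breeds, HOX genes could hardly be tested in the pituitary. Only HOXA10 passed the filter in juveniles, at -1.21 ± 0.91 (adjusted p = 0.391, edgeR), and 0 HOX genes were DEGs, against 20.3% of all 14603 genes. In adults HOXA10 and HOXD8 passed and HOXA10 was a DEG, with 0, 5 and 3 reads in DPPA and 9, 14 and 27 in MHPA (-2.97 ± 0.95, adjusted p = 0.507, edgeR), against 2.93% of all 14376 genes. Without DPPA1 and MHPA1, left out after their values were seen, it was at -2.68. Its call was lost without DPPA3 (-3.08) or MHPA3 (-2.48), and its log2 fold change was -3.68 without DPPA2. The count of DEGs was 2 without MHPA2 and 0 without DPPA3 or MHPA3.

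Over both stages 4 HOX genes passed the filter and 2 were DEGs, against 5.51% of all 15200 genes. HOXA10 was lower in DPs (-2.04 ± 0.76, adjusted p = 0.205), and at -2.70 without DPPJ3. Without the 5 libraries poor in hormone transcripts it was at -2.68 and was the only HOX gene called, and HOXA13 was at 1.54 and not called, with MHs left at 2 adult libraries. HOXA13 was higher in DPs, with 21, 17 and 8 reads in DPPJ and 13, 0 and 22 in DPPA against 2, 0 and 1 in MHPJ and 5, 3 and 3 in MHPA (2.20 ± 0.89, adjusted p = 0.237, edgeR). The highest MH library, with 5 reads, was above 1 of the 6 DP libraries. The HOXA13 call was lost without DPPA3 (1.999), DPPJ1 (1.98), MHPJ1 (2.19), MHPJ2 (1.93) or MHPJ3 (2.02). Both genes were among the abundant HOX genes of the long bone libraries, in which HOXA13 took 28 to 410 reads.

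Between stages, HOXA13 was the only HOX gene tested in the DP pituitary (0.38 ± 1.11, against 3.56% of all genes called). HOXD1 and HOXA10 were tested in MHs (-0.30 ± 2.16, and -0.64 ± 0.66, against 7.74%). In these tests 0 HOX genes were DEGs and 0 had an unadjusted P under 0.05. The interaction of breed and stage called 0 of 4 genes, against 15.7% of all genes. HOXD8 came nearest, at -4.88 ± 2.45 (adjusted p = 0.281), and MHPJ2 alone holds its reads in MHPJ.

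The partners and regulators of HOX proteins did not follow the HOX genes. Of the 9 TALE homeodomain cofactors listed, 8 were in the table, and between the tissues 0 were higher and 1 was lower in the long bone. That was MEIS2, with 5.47 to 164 RPKM in the pituitary and 0.09 to 23.9 in the long bone (-4.57 ± 0.61, adjusted p = 4.04e-06, edgeR). ParaHox and EVX genes, relatives of the clusters and their neighbours, passed the filter in 0 of 8 cases. In the adult long bone 3 of 8 cofactors tested were DEGs, against 18.3% of all genes. MEIS3 was higher in DPs (2.48 ± 0.51, adjusted p = 0.0532). MEIS1 was lower (-4.95 ± 1.60, adjusted p = 0.121), which rested on MHLBA1, since it was at -0.80 and not called without it, and its call was also lost without DPLBA1 (-4.78) or DPLBA3 (-4.65). MEIS2 was also lower (-5.51 ± 1.35, adjusted p = 0.0738), at -3.26 without MHLBA1 and -6.81 without DPLBA2.

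Of 18 limb genes tested between the tissues, 11 were higher and 6 lower in the long bone, against 17.4% and 21.5% of all genes, with a median log2 fold change of 2.54 against -0.03 for all genes. TBX5 (5.87), DLX5 (5.59) and TBX4 (5.23) were higher, and ISL1, which also marks pituitary lineages, was lower (-4.85). PITX1, which is also a pituitary factor, was lower in the long bone (-3.97 ± 0.73) and reached 260 RPKM in the pituitary. Of 12 forebrain and pituitary position genes tested, 11 were lower in the long bone and 0 higher, among them LHX3 (-8.17), POU1F1 (-7.51) and OTX2 (-7.33). Of 5 midbrain and hindbrain genes tested, 2 were higher, among them EGR2 (1.11). Among 14 chromatin regulators of HOX clusters, those of the Polycomb and trithorax groups, EZH2 was higher (1.16 ± 0.24) and CBX7 lower (-1.12 ± 0.17) in the long bone, and the median was 0.15. In the adult long bone KMT2A, a trithorax-group methyltransferase that keeps HOX genes on, was lower in DPs (-1.25 ± 0.27, adjusted p = 0.0594) and EZH2, a Polycomb methyltransferase, higher (1.02 ± 0.26, adjusted p = 0.0811). EZH2 was under the fold threshold without DPLBA2 (0.89) or MHLBA2 (0.98). In the juvenile long bone, MEIS2 was the only cofactor DEG (-2.45 ± 0.79, adjusted p = 0.205), at -1.24 and not called without MHLBJ3.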

How the data were processed

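RNA-seq was made from 24 libraries of 12 animals, in 8 groups of 3, all assigned from the sample titles. Per the labels, the libraries were directional, made after rRNA depletion and read as pairs, and the submitters' processing notes name bcl2fastq, TopHat2 and edgeR without versions. The study's methods describe trimming and mapping to EquCab 3.0 with another tool, and the counting tool, its strand setting and its handling of reads shared by paralogs are not given in the sources used here. The authors deposited the count of reads per gene, not normalized, and RPKM values, the reads divided by gene length and library size. Without a stated strand setting, reads of a HOX gene and of an overlapping or antisense transcript cannot be told apart, and RPKM of short gene models, such as that of HOXD11, is less certain.

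The counts were tested here with R 4.3.3 and edgeR 4.0.16 (filterByExpr with a minimum count of 10, TMM normalization, glmQLFit and glmQLFTest) over all genes, with Benjamini-Hochberg adjustment over all of them. A gene was called where P was under 0.05 and the fold change over 2, the study's rule. Log2 fold changes are long bone minus pituitary, DP minus MH and juvenile minus adult, and the interaction is the juvenile minus the adult breed difference. Ratios of pooled reads carry exact 95% intervals that cover counting error only. A library with 0 reads was set to a floor of 3 reads where a lower bound is given. The steps were tested on simulated counts. Levels, shares and ranges were computed with Python 3.11.15 and pandas 2.3.3. Alternatives were DESeq2 1.42.0, DESeq2 size factors, no filter on low counts, limma 3.58.1 on log2(RPKM + 1) and log2(RPKM + 0.1), an adjusted p threshold, all 12 libraries of a tissue in a single fit, a replicate block and leaving out each library.

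The HOX members and the gene lists were chosen with earlier results of these data known. Every HOX gene could be named, those past the threshold with their fold change, and from each other list at most 4 genes past the threshold in a comparison, besides PITX1, TBX4, TBX5 and the position genes. A few genes entered the tests and counts but are not reported here by name or in the plots. Nothing says more of the replicates than that they are different animals of a group, and pituitary and bone of the same number were not stated to share an animal. Same-numbered libraries deviated together in 1 of 12 pairs between tissues (r from -0.132 to 0.256). In the adult pituitary all 3 same-numbered DP and MH pairs correlated over 0.1 (0.330 to 0.621 across genes). These are animals of different breeds that share only a number. DPPA1 and MHPA1 are also both poor in hormone transcripts, so the correlation was not read as a pairing. The block is given as an alternative only.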

Additional observations from a re-analysis of the deposited data

Results flagged for a closer look

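In 4 HOX genes the interaction of breed and stage in the long bone passed the unadjusted threshold (P under 0.05 and a fold over 2, edgeR's quasi-likelihood test). None of them passed Benjamini-Hochberg adjustment (adjusted p = 0.971, edgeR), so a change of the breed difference with stage is not established. The juvenile minus adult breed difference was 6.49 for HOXC9, 7.36 for HOXC10 and 2.87 for HOXC6. In all 3 genes every DPLBA library was below every MHLBA library, and within DPLBJ the value of DPLBJ1 was near that of DPLBA. For HOXA13 it was -2.06, with DP minus MH at -0.27 in juveniles and 1.75 in adults. Beyond leaving out each library in turn, groups of 3 libraries were not examined for single outlying values.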

How the results depend on the processing

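Among the HOX genes that were called, no value turned its direction under the alternatives, which were not followed for genes not called. Of these values, 1058 kept their call and 77 lost it. With a Benjamini-Hochberg adjusted p threshold, the counts of HOX genes called were 0 in the juvenile breed comparison of the long bone, 0 in the adult breed comparison of the pituitary, 1 and 0 over both stages in the long bone and the pituitary, 0 between stages in the DP long bone and 0 for the interaction in the long bone. With no filter on low counts they were 2 between breeds in the juvenile pituitary, 4 between breeds in the pituitary over both stages, between stages 7 in the DP and 1 in the MH long bone and 1 in the DP pituitary, and 1 for the pituitary interaction. With limma on log2(RPKM + 1) and log2(RPKM + 0.1) they were 4 and 5 between breeds in the juvenile long bone, 1 and 1 between stages in the MH long bone and 1 and 1 for the long bone interaction, and with the first of these 0 in the adult pituitary and 0 in the pituitary over both stages. Without the 5 pituitary libraries poor in hormone transcripts, a choice made after seeing the data, 1 was called between breeds in the pituitary over both stages. DESeq2 called 2 between stages in the MH long bone. A fit on all 12 libraries of the tissue called 1 between breeds in the juvenile pituitary and 6 between stages in the DP long bone. The cause of these shifts was not tested.

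With the replicate block, 4 HOX genes were called between breeds in the juvenile long bone in place of 2, and 1 between stages in the DP long bone in place of 3. In the adult pituitary the block called 1 as before. Same-numbered libraries of different breeds or stages share only a number.

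Leaving out each library in turn gave 22 to 24 HOX genes between the tissues. Between breeds it gave 1 to 5 in the juvenile and 5 to 8 in the adult long bone, 5 to 7 over both stages, and 0 to 2, 0 to 2 and 1 to 2 in the juvenile pituitary, the adult pituitary and over both stages. Between stages it gave 1 to 8 in DPs and 0 to 4 in MHs for the long bone, 0 to 1 in DPs and 0 in MHs for the pituitary, and for the interaction 4 to 6 and 0 to 1 in the long bone and the pituitary.

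A count of 0 allows up to 3 reads in a library, which limits the folds against the pituitary and against the DPLBA values of HOXC genes. Detection in every long bone library held for 13 members at over 3 reads and for 10 at no fewer than 10 reads.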

Other observations

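A row without a gene name is described in the table as hox-a9. It took 170 to 636 reads in DPLBJ, 605 to 1553 in DPLBA, 367 to 1028 in MHLBJ and 68 to 858 in MHLBA, and 0 to 10 in the pituitary libraries. At 2.98 to 65.5 RPKM in the long bone, with 65.5 in DPLBA3 and 2.98 in MHLBA1, it would rank beside HOXD8. A row described as hox-c4 took 29 reads in MHLBJ2, 12 in MHLBA3, 11 in DPLBJ3 and 0 to 3 in the other long bone libraries, with 0, 2 and 0 in DPLBA and 0 in DPLBJ1. Neither row entered the counts of members.

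PDX1 and CDX2, of the ParaHox genes, were at 4.05 and 2.27 RPKM in MHLBA1, from 98 and 36 reads. They had at most 3 and 1 reads in the other long bone libraries. These were named after their values were seen.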
